A study of Mus musculus with 10 samples.

Results

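Mouse leukemia stem cells carrying the MLL-AF9 fusion (1 line) were compared with those carrying the NUP98-JARID1A fusion (3 lines). The members were chosen by their titles: all 4 arrays that carry either fusion, of 10 arrays in the series, with every gene on the array. RNA came from cultured cells given serum and stem cell factor, without the Dot1l inhibitor that other cultures received, and was hybridised to Affymetrix Mouse Genome 430 2.0 arrays. The other 6 arrays are RH-RAS lines, made with R882H-mutated DNMT3A and G12D-mutated NRAS, of which 4 were untreated (given here only for reference) and 2 received 1 µM SGC0946 for 4 days. The sources used here name the fusions and call the cells transformed progenitors. They give no mouse strain, age, vector, promoter or clonality, and do not say whether the NUP98-JARID1A lines came from separate animals.

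MLL-AF9 joins the amino-terminal, DNA-binding part of the histone methyltransferase MLL (Kmt2a) to AF9 (Mllt3), a partner of the elongation machinery that also binds the histone H3 methyltransferase Dot1l. NUP98-JARID1A joins repeats of the nucleoporin NUP98 to the histone-binding finger of the lysine demethylase JARID1A (Kdm5a). Both are known to keep homeobox genes of the Hoxa cluster and the cofactor Meis1 on in myeloid progenitors, which then fail to mature. Maturing granulocytes make granule proteins in order, first the primary granule proteases and later the contents of secondary and tertiary granules, while eosinophils pack their granules with a different set of basic proteins.

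The MLL-AF9 line differed from the NUP98-JARID1A lines in genes of granules and surface receptors. It had high levels of eosinophil granule genes that were below the array median in all 3 NUP98-JARID1A lines, and lower levels of several myeloid receptors and chemokines. A list of primary granule and associated genes was mixed by the rule below: of 13 measured, Elane and Ms4a3 were higher, Lyz1 and Lyz2 lower and 9 neither. Late neutrophil genes were lower in the median than in lines 1 and 3 but not than in line 2. Of 7 Hoxa genes 3 were lower by little over 2-fold, while Hoxa9 was at 12.67 against 12.36 to 12.40. Values are log2 intensities, so a difference of 1 is 2-fold, and a pair written in this way gives the MLL-AF9 level against the range of the 3 NUP98-JARID1A lines. A gene was called higher or lower where the MLL-AF9 array differed from the mean of the 3 lines by at least 1 and lay outside their range. Of 11776 measured genes, those with the MLL-AF9 value or the NUP98-JARID1A mean above 5.76 (the average array median), 406 (3.45%) were called higher and 784 (6.66%) lower in MLL-AF9, 10.1% in all. At a difference of at least 2 the counts were 107 and 153. For genes that passed the filter through 1 group alone, the filter fixed the direction of the difference, also within the list counts. Among the lower genes named below these include Stfa3, Cd177, Gata3, Eya1, Relb, Ccl5, Stat2 and Vwf. The median difference over all measured genes was −0.03.

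With 1 MLL-AF9 array there is no replicate check, and an exact permutation test of 1 array against 3 cannot give a two-sided p below 0.5, so the calls are descriptions. A limma fit of the 8 arrays without inhibitor assumes that the lone array varies like the other groups. It passed 857 genes (7.28%) as higher and 1485 (12.6%) as lower at an adjusted p under 0.05, and these included 281 of the 406 and 584 of the 784 genes called here. On the 4 arrays alone it passed 17 and 4. The 1 MLL-AF9 array lay farther from each NUP98-JARID1A line than these lay from each other. The filter adds to this, as it admits genes high on the MLL-AF9 array alone. Genes high in 1 NUP98-JARID1A line have to lift the mean above the filter. How much this adds was not tested. The MLL-AF9 array had 1341, 1472 and 1503 genes apart by at least 1 from lines 1, 2 and 3, and the 3 pairs of NUP98-JARID1A lines had 703, 656 and 495. The Pearson r across genes, which are not independent, was 0.925 to 0.933 for the former and 0.960 to 0.970 for the latter.

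**Figure D1:**
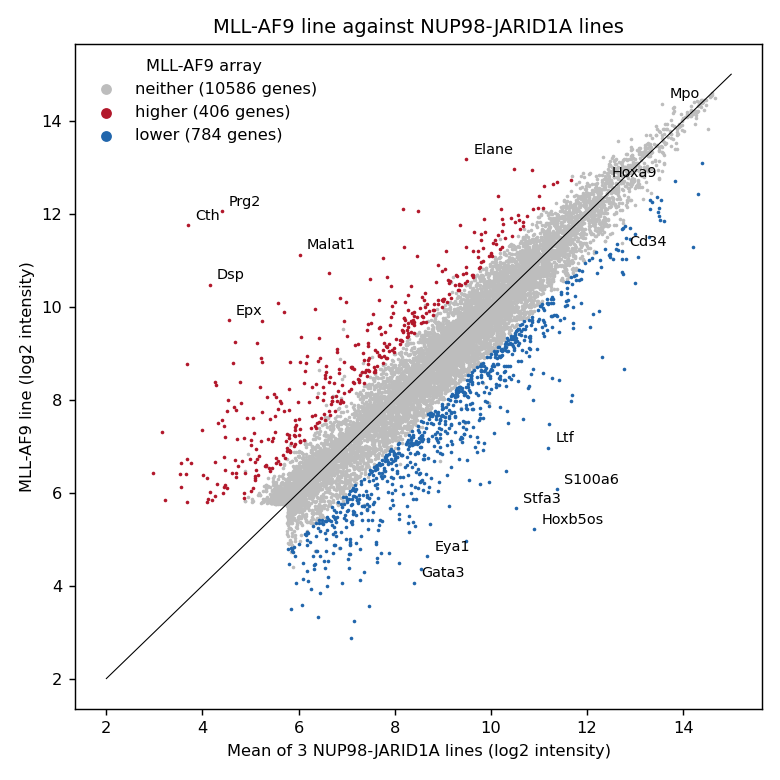
Each point is 1 of 11776 measured genes, with the mean log2 intensity of the 3 NUP98-JARID1A lines on the x axis and the log2 intensity of the MLL-AF9 line on the y axis; the line marks equal levels. The 406 genes called higher lie above it and the 784 called lower below it, with Prg2 and Cth among the farthest above and Hoxb5os and S100a6 among the farthest below.

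One technical measure separated the arrays in the same way. The difference between the 3′ and 5′ control probe sets of the transferrin receptor Tfrc was 1.08 on the MLL-AF9 array and 3.45 to 3.92 on the NUP98-JARID1A arrays, against 0.198 to 0.646 on untreated RH-RAS arrays. For Actb it was 0.517 against 0.518 to 0.749, and for Gapdh −0.028 against −0.108 to −0.032. Long transcripts with several probe sets also disagreed among them. The nuclear RNA Malat1 was higher in MLL-AF9 by 1.64 to 5.41 on 6 probe sets and lower by 1.03 on another. Xist, the RNA of the inactive X chromosome, was higher by 2.08, 4.54 and 7.87 on its 3 probe sets. Probe sets below the filter were left out of the next counts. Of the called genes with several probe sets above it, all of these had 1 sign for 157 of 195 higher genes (80.5%) and 248 of 307 lower genes (80.8%). Every such probe set was itself called for 73 of the 195 (37.4%) and 113 of the 307 (36.8%). With every probe set above the filter required to pass, 284 higher and 590 lower genes were left. Only 73 and 113 of them had several such probe sets, and the others, with 1, could not fail. The part of RNA or labelling quality in the calls was not tested.

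**Figure D2:**
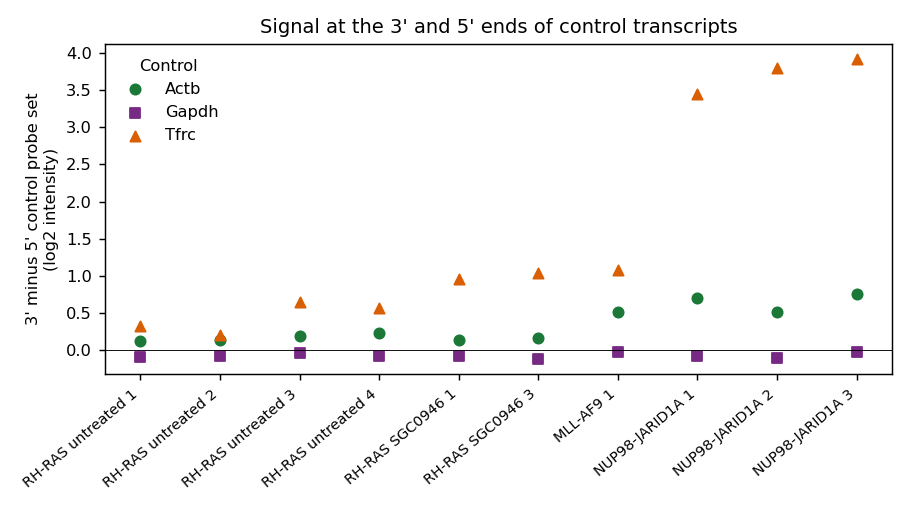
The y axis gives the log2 intensity of the 3′ control probe set minus that of the 5′ one for Actb, Gapdh and Tfrc, with 1 point per control on each of the 10 arrays along the x axis. The Tfrc points of the 3 NUP98-JARID1A arrays stand at 3.45 to 3.92, above 1.08 on the MLL-AF9 array and all RH-RAS arrays.

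Eosinophil granule genes were high in the MLL-AF9 line and below the array median in the 3 NUP98-JARID1A lines. Prg2, the eosinophil major basic protein, was at 12.05 in the MLL-AF9 line and at 4.18, 4.46 and 4.56 in NUP98-JARID1A lines 1, 2 and 3. Its level was 7.65 above their mean of 4.40 ± 0.20 (SD, n = 3), or 201-fold. The eosinophil peroxidase Epx was at 9.70 in the MLL-AF9 line and at 4.33, 4.82 and 4.48 in NUP98-JARID1A lines 1, 2 and 3, a 35.7-fold difference. Prg3, a homolog of Prg2, was at 8.27 in the MLL-AF9 line and at 5.16, 5.20 and 5.24 in NUP98-JARID1A lines 1, 2 and 3. For these 3 genes the NUP98-JARID1A lines lay close together and near the untreated RH-RAS lines (Prg2 3.95 to 4.28, Epx 4.21 to 4.75, Prg3 4.72 to 5.23), with a far wider gap to MLL-AF9. In bulk RNA, fewer cells of a type and less RNA per cell cannot be told apart. Of 6 eosinophil genes on the array 4 were measured, and the receptor genes Il5ra and Ccr3 were below the filter. The 3 called ones passed the filter through the MLL-AF9 level alone, so their count supports nothing beyond their own values. The fourth, the surface lectin Siglecf, was called neither way at a difference of 0.18. Prg2 and Prg3 are neighbours, and with Slc43a1 and Slc43a3 beside them they formed a run of 4 consecutive measured genes called higher, by 1.65 to 7.65. NUP98-JARID1A line 2 was near MLL-AF9 for Slc43a1 (6.95 against 7.57) and Slc43a3 (9.80 against 10.30).

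Of 13 mast cell and basophil genes on the array 6 were below the filter. Of the 7 measured members 3 were called higher and 0 lower, beside 3.45% of all measured genes called higher, with a list median of 0.02. The mast cell carboxypeptidase Cpa3 was at 9.09 in the MLL-AF9 line and at 6.91, 7.49 and 5.98 in NUP98-JARID1A lines 1, 2 and 3. Ms4a2, the beta chain of the high-affinity IgE receptor, was at 5.99 against 4.77 to 4.92 and passed the filter only through the MLL-AF9 level, and the transcription factor Gata2, which acts in mast cells, eosinophils and stem cells, at 9.54 against 7.14 to 8.37. The MLL-AF9 line was above every NUP98-JARID1A line for all 3. The basophil protease Mcpt8 and the histidine decarboxylase Hdc were called neither way (−0.54 and 0.02).

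The list of primary granule and associated genes had 13 measured members. Of these 2 were called higher, 2 lower and 9 neither, with a median of 0.40. Over all measured genes 3.45% were called higher and 6.66% lower. Neutrophil elastase, Elane, was at 13.18 in the MLL-AF9 line and at 11.49, 7.65 and 9.32 in NUP98-JARID1A lines 1, 2 and 3. MLL-AF9 was 12.9-fold above their mean, but the lines themselves spread widely (9.49 ± 1.93, SD, n = 3) and line 1 came within 1.69 of it. Ms4a3, a membrane gene of granulocyte progenitors, was at 12.97 in the MLL-AF9 line and at 11.94, 8.33 and 11.18 in NUP98-JARID1A lines 1, 2 and 3, again with line 2 the lowest. Limma on 8 arrays passed neither of them, nor the lysozyme genes below. Myeloperoxidase, Mpo, was above all 3 lines at 14.36 against 12.98 to 14.05 but within the fold limit (0.80). Hp and Igsf6, at differences of −0.51 and −0.38, were also called neither way. So were the proteases Ctsc, Prtn3 and Ctsg, at 0.76, 0.48 and 0.27. The lysozyme genes were called lower. Lyz2 was at 12.43 against 14.14 to 14.49 and Lyz1 at 13.09 against 14.22 to 14.48, both below all 3 lines, which lay close together, and near-identical sequences of this pair may share signal.

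Late neutrophil genes had lower levels in MLL-AF9 than in NUP98-JARID1A lines 1 and 3, but as a list not than in line 2, with a mean level of 8.57 in MLL-AF9 and 11.12, 8.44 and 10.42 in lines 1, 2 and 3. Of 22 measured genes of secondary and tertiary granules and late neutrophils, 10 were called lower, 0 higher and 12 neither, beside 6.66% of all measured genes called lower. The list median was −1.09, made of −2.25, 0.36 and −1.34 against lines 1, 2 and 3. The count was 15 without line 2 and 9 without line 1 or without line 3. Lactoferrin, Ltf, was at 6.97 in the MLL-AF9 line and at 12.71, 9.08 and 11.79 in NUP98-JARID1A lines 1, 2 and 3. The stefin gene Stfa3, a protease inhibitor, was at 5.67 in the MLL-AF9 line and at 12.84, 8.31 and 10.41 in NUP98-JARID1A lines 1, 2 and 3. Padi4, the enzyme that citrullinates histones in neutrophils, was at 6.24 in the MLL-AF9 line and at 11.31, 8.58 and 10.02 in NUP98-JARID1A lines 1, 2 and 3. The neutrophil surface gene Cd177 was at 4.49 in the MLL-AF9 line and at 8.77, 5.37 and 10.11 in NUP98-JARID1A lines 1, 2 and 3, and Csf3r, the receptor of granulocyte colony-stimulating factor, at 8.72 against 9.55 to 10.29. In each of the first 4, line 2 was the NUP98-JARID1A line nearest to MLL-AF9. Some late genes were close: S100a8 and S100a9, the paired calcium-binding proteins of neutrophils, were at differences of −0.05 and −0.04. In the untreated RH-RAS lines Ltf (5.45 to 5.70) and Stfa3 (3.22 to 3.49) were lower still than in MLL-AF9.

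**Figure D3:**
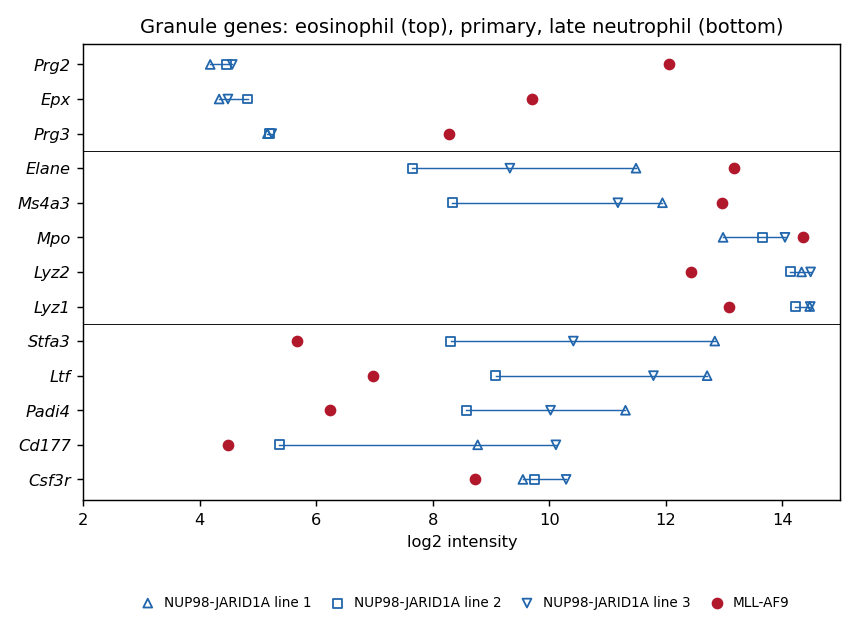
The x axis is log2 intensity and each row a gene, with the MLL-AF9 line as a filled circle and NUP98-JARID1A lines 1, 2 and 3 as an upward triangle, a square and a downward triangle joined by a line that spans their range. The eosinophil genes show MLL-AF9 far above 3 tightly grouped lines, and for Ltf it lies at 6.97, below lines at 9.08 to 12.71 that are spread out.

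The promoters of some of these genes show short motifs of factors known in myeloid cells. The windows are RefSeq promoters (build GRCm38.p6) of 300 bases, 250 before and 50 after the start, found for 9560 of the 11776 measured genes. The motifs were chosen with the values in view, searched on both strands, and a match is a description of letters only. The C/EBP core TTGCNNAA was in 26 of 321 promoters of higher genes (8.10%), 67 of 617 of lower genes (10.9%) and 7.98% of all, and in 5 of 19 late neutrophil promoters (26.3%) and 3 of 12 primary granule promoters (25%). The PU.1 core GAGGAAG was in 6 of 12 primary granule promoters (50%), 6 of 19 late neutrophil promoters (31.6%), 14.0% of those of higher genes, 17.7% of lower genes and 13.6% of all. The GATA core AGATAA was in 8.10%, 9.24% and 6.44% of higher, lower and all promoters, and in 5 of 19 late neutrophil (26.3%) and 0 of 12 primary granule promoters. Promoters of lower genes held a median of 16 CpG dinucleotides, against 21 in higher and in all measured genes, and those of the late neutrophil list 4. The 250 bases upstream of Ltf and Lcn2, a siderophore-binding granule protein at 8.26 against 8.53 to 12.20, are shown with the C/EBP core in capitals, and those of Elane with the PU.1 core in capitals:
Ltf (chr9:111019042-111019291, plus strand): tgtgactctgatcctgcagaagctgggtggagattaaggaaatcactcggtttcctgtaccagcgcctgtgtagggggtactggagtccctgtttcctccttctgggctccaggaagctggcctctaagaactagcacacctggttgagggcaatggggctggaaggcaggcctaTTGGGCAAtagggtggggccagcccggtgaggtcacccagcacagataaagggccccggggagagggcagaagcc
Lcn2 (chr2:32387740-32387989, minus strand): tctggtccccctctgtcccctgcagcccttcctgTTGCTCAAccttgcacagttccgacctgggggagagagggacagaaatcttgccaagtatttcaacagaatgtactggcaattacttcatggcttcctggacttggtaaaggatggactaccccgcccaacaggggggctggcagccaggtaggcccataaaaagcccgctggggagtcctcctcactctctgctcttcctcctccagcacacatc
Elane (chr10:79886062-79886311, plus strand): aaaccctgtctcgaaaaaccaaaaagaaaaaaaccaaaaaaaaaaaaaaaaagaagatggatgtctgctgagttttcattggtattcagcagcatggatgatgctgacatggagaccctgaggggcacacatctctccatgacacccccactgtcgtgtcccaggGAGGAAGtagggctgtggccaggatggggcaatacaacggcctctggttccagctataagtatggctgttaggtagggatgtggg
The capitals begin 75 bases before the start in Ltf, 216 in Lcn2 and 85 in Elane.

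Receptors of mature myeloid cells were compared as a list. Of 14 measured Fc receptor and C-type lectin genes 8 were called lower and 0 higher, beside 6.66% of all measured genes called lower. Their median was −1.50, and −1.09 with no filter. Against the single lines it was −1.40, −0.85 and −1.62 with the filter. Fcgr3, a low-affinity receptor of IgG, was at 9.57 in the MLL-AF9 line and at 12.05, 11.78 and 12.35 in NUP98-JARID1A lines 1, 2 and 3, a 5.62-fold difference with no overlap. Fcer1g, the signalling chain that Fc receptors share, was at 11.95 against 13.41 to 13.57. Clec4d, a receptor of mycobacterial lipids, was at 9.71 against 10.99 to 11.75. Its neighbour Clec4n, a receptor of fungal mannans, was at 5.99 in the MLL-AF9 line and at 6.07, 8.66 and 10.31 in NUP98-JARID1A lines 1, 2 and 3, so that line 1 was nearly as low as MLL-AF9. Clec4n, Clec4d and Clec4e were a run of 3 consecutive measured genes called lower. The fungal glucan receptor Clec7a was called neither way at 0.61.

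Monocyte and macrophage genes were mixed. Of 27 measured members 7 were called lower, 1 higher and 19 neither (median −0.32), beside 6.66% and 3.45% of all measured genes called lower and higher. The count of lower genes was 11 without line 1 and 5 without line 3. The lysosomal membrane gene Cd68 was at 8.0 in the MLL-AF9 line and at 10.42, 10.63 and 11.60 in NUP98-JARID1A lines 1, 2 and 3, and the galectin Lgals3 at 11.02 against 11.86 to 13.42. Dab2, an endocytic adaptor, was at 5.97 against 6.89 to 9.05. Limma on 8 arrays passed neither Lgals3 nor Dab2. Klf4, a transcription factor of monocytes, was the one called higher, at 7.43 in the MLL-AF9 line and at 4.59, 4.33 and 4.45 in NUP98-JARID1A lines 1, 2 and 3. It passed the filter only through the MLL-AF9 level. The macrophage growth factor receptor Csf1r was below all 3 lines at 10.95 against 11.41 to 12.38 but within the fold limit. Of 13 measured dendritic cell and MHC class II genes 2 were called lower (Cd74, the invariant chain, at 7.07 against 8.33 to 8.61, and the integrin Itgax) and 1 higher (the chemokine receptor Ccr7, at 6.39 against 4.75 to 5.40). These counts stand beside the same 6.66% and 3.45%. Ccr7 passed the filter only through the MLL-AF9 level.

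Chemokines and NF-kB genes leaned lower. Of 15 measured inflammatory genes 8 were called lower and 0 higher, beside 6.66% of all measured genes called lower. Their median was −1.08, and −0.85 with no filter. Limma on 8 arrays passed 3 of the 8. Ccl3, a chemokine that attracts monocytes, was at 7.98 in the MLL-AF9 line and at 11.13, 11.76 and 12.13 in NUP98-JARID1A lines 1, 2 and 3, and MLL-AF9 was 12.9-fold below their mean. Ccl4 and Ccl5, of the same family, were at 7.46 against 8.23 to 9.73 and 5.58 against 6.34 to 8.36. Relb, a subunit of NF-kB, was at 5.39 against 7.02 to 7.28. On the chromosome Ccl5, Ccl9, Ccl6, Ccl3, Ccl4, Wfdc17 and Wfdc18 made the longest of 16 runs of at least 3 consecutive measured genes called the same way, all 7 lower, by 1.08 to 3.69. The next was a run of 6 around the Cd300 family of lipid-sensing myeloid receptors, lower by 1.19 to 2.2.

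Interferon-stimulated genes had 6 called lower, 0 higher and 19 neither of 25 (median −0.54), beside 6.66% of all measured genes called lower. Isg20, an exonuclease, was at 6.51 against 8.18 to 8.71, Usp18, which removes the modifier ISG15, at 6.02 against 7.25 to 8.52, and Stat2, a transcription factor of the interferon response, at 5.60 against 6.88 to 7.33. Line 3 was the highest of the NUP98-JARID1A lines for all 3, and the list median against it was −1.09, against −0.42 and −0.44 for lines 1 and 2. Of 25 cytokine receptors 6 were called lower and 0 higher (median −0.33), beside the same 6.66%. They included Il3ra, the interleukin-3 receptor chain, at 7.18 against 8.74 to 9.04, Il17ra at 9.38 against 10.79 to 10.87 and Tgfbr2, a receptor of TGF-beta, at 8.72 against 9.16 to 11.12. The stem cell factor receptor Kit (11.39 against 11.94 to 12.27) and Flt3 (10.13 against 9.89 to 11.03) were called neither way, and Flt3 lay within the range of the lines. Another probe set of Kit was at 6.95 against 9.47 to 9.79, so that its probe sets disagreed in size.

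**Figure D4:**
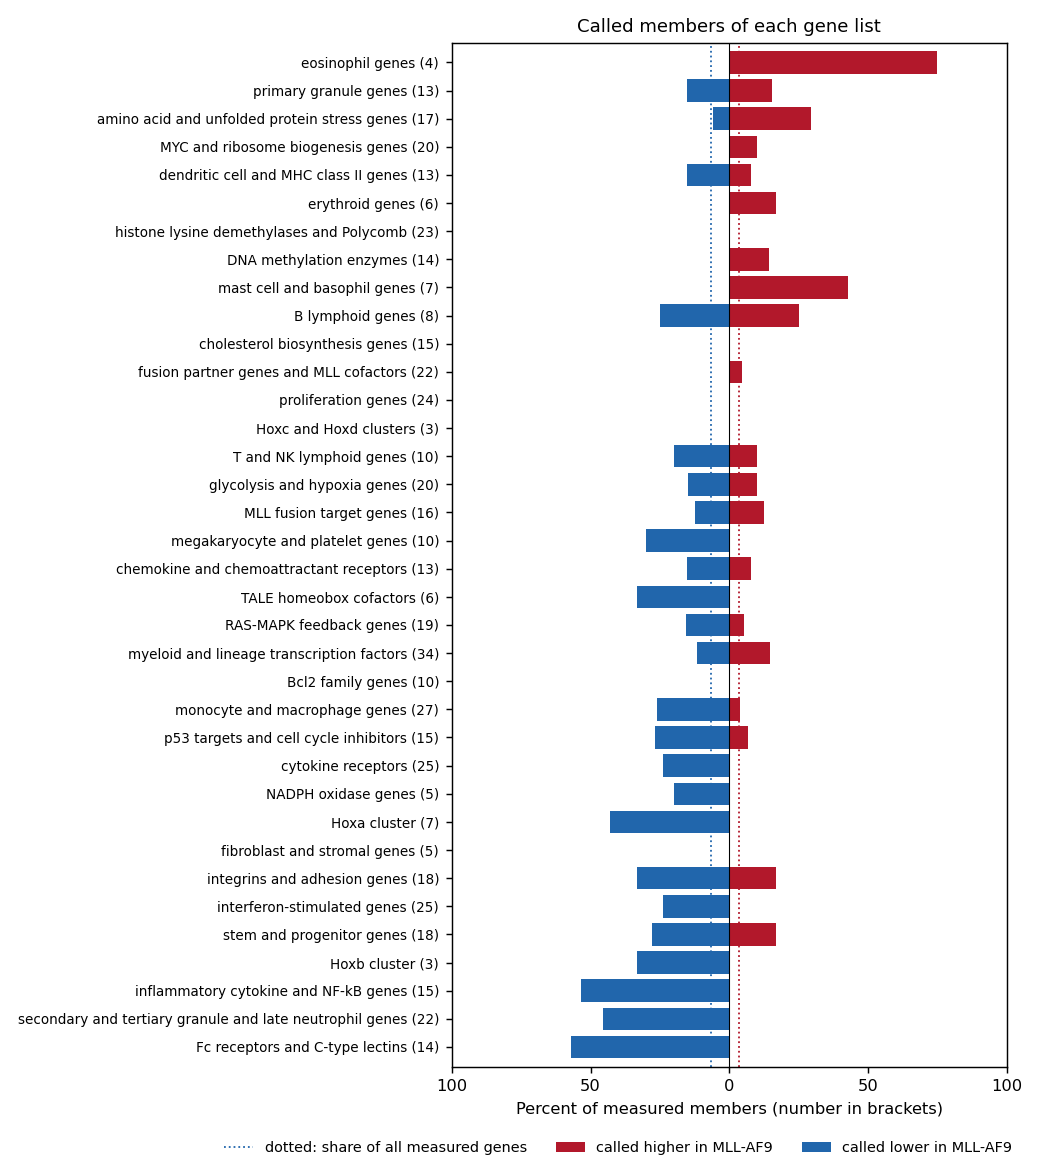
For each gene list, with the number of measured members in brackets, bars give the percent of members called higher (right) and lower (left) in MLL-AF9 on the x axis, ordered by the median difference; dotted lines mark the 3.45% and 6.66% of all measured genes. Fc receptors and C-type lectins, late neutrophil genes and inflammatory genes stand at the bottom, with 8 of 14, 10 of 22 and 8 of 15 called lower. Eosinophil genes stand at the top through 3 genes that passed the filter by the MLL-AF9 level alone, and their list median of 4.12 was 1.66 with no filter and 0.18 where at least 2 of 10 arrays had to be above the array median.

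The homeobox genes that both fusions are known for were compared next. Of 7 measured Hoxa genes 3 were called lower, 0 higher and 4 neither (median −0.46), and the 3 lay just past the fold limit, at −1.01 to −1.13. Over all measured genes 6.66% were called lower. Hoxa5 was at 8.6 in the MLL-AF9 line and at 9.41, 9.84 and 9.57 in NUP98-JARID1A lines 1, 2 and 3 on its brightest probe set. Another Hoxa5 probe set was at 8.10 against 8.23 to 8.27, well within the fold limit. Hoxa2 was at 5.75 against 6.53 to 7.54 and Hoxa3 at 6.74 against 7.62 to 7.94. Without line 2 only 1 Hoxa gene was called lower. Hoxa7 was at 9.44 against 9.75 to 10.01 and Hoxa10 at 8.93 against 8.82 to 9.29, within the range of the lines. Hoxa9, a main driver of both leukemias, was at 12.67 in the MLL-AF9 line and at 12.36, 12.36 and 12.40 in NUP98-JARID1A lines 1, 2 and 3, slightly above all 3. Hoxb3 was called lower at 6.85 in the MLL-AF9 line and at 7.63, 9.02 and 7.53 in NUP98-JARID1A lines 1, 2 and 3, where line 2 was the highest. Its other probe set was at 3.86 in the MLL-AF9 line and at 6.49, 7.5 and 5.24 in lines 1, 2 and 3, below all 3. Hoxb5os, a transcript antisense to Hoxb5, had the largest negative difference of all genes, at 5.22 in the MLL-AF9 line and at 11.39, 12.30 and 9.0 in NUP98-JARID1A lines 1, 2 and 3, 51.3-fold below the mean. The Hoxb5 gene itself was below the filter.

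Of 6 measured cofactors of the TALE class, which bind DNA with Hox proteins, 2 were called lower and 0 higher. Over all measured genes 6.66% were called lower and 3.45% higher. Meis1 was at 7.70 in the MLL-AF9 line and at 7.83, 8.22 and 8.08 in NUP98-JARID1A lines 1, 2 and 3 on its brightest probe set, and on another at 6.55 against 5.24 to 5.57, in the opposite direction. Pbx3 was at 6.80 in the MLL-AF9 line and at 7.0, 9.44 and 9.37 in NUP98-JARID1A lines 1, 2 and 3, so that line 1 was near MLL-AF9 and lines 2 and 3 were high. Pbx4 was at 4.83 against 5.41 to 6.78. Among 16 other known targets of MLL fusions, 2 were called higher, 2 lower and 12 neither, beside the same shares of all measured genes. Eya1, a transcriptional phosphatase, was at 4.63 in the MLL-AF9 line and at 9.48, 7.02 and 9.52 in NUP98-JARID1A lines 1, 2 and 3, 16.5-fold lower, and its partner Six4 at 5.30 in the MLL-AF9 line and at 9.89, 7.05 and 6.08 in NUP98-JARID1A lines 1, 2 and 3. Mecom, which encodes the zinc finger factor Evi1, was at 10.15 in the MLL-AF9 line and at 8.01, 9.20 and 5.83 in NUP98-JARID1A lines 1, 2 and 3 and called higher by 2.47, with line 2 within 1 of MLL-AF9. Its other probe sets were below the filter. Mef2c, a MADS-box factor, was at 10.81 against 8.17 to 9.99. Limma on 8 arrays did not pass Mecom, Mef2c, Six4, Pbx3 or Pbx4.

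The genes that the fusions are made from were compared by their probe sets. What these read of a fusion transcript was not tested. Mllt3 (AF9) was called higher, at 6.09 in the MLL-AF9 line and at 4.61, 3.58 and 5.34 in NUP98-JARID1A lines 1, 2 and 3, and all were below the untreated RH-RAS lines (9.63 to 10.42). This call was lost with the probe set of highest mean over the 4 arrays, or where every probe set had to pass. Mllt3 passed the filter only through the MLL-AF9 level. Kmt2a (MLL) was at 9.17 against 9.65 to 10.22, lower by 0.74. Nup98 was at 10.60 against 10.27 to 10.48. Kdm5a (JARID1A) was at 9.46 against 9.43 to 9.47 on its brightest probe set, and on 2 others at 8.96 against 6.39 to 7.31 and 7.92 against 5.19 to 6.04, so that its probe sets disagreed. None of 23 measured histone demethylase and Polycomb genes was called, beside 10.1% of all measured genes. Cbx8 (6.74 against 7.63 to 7.67) and Jarid2 (11.32 against 10.25 to 10.66) came nearest to the limit, and limma on 8 arrays passed both.

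Some transcription factors of blood lineages differed. Of 34 measured factors 5 were called higher, 4 lower and 25 neither, beside 3.45% and 6.66% of all measured genes called higher and lower. Gata3, a factor of T cells and of early progenitors, was at 4.06 in the MLL-AF9 line and at 8.50, 8.57 and 8.17 in NUP98-JARID1A lines 1, 2 and 3, below the array median in MLL-AF9 and 20.4-fold below the mean, with untreated RH-RAS lines at 6.31 to 7.18. Ikzf2 (Helios) was at 7.84 in the MLL-AF9 line and at 4.91, 4.77 and 4.31 in NUP98-JARID1A lines 1, 2 and 3. Ikzf2 and Klf4 passed the filter only through the MLL-AF9 level. Egr1, an immediate early factor, was at 8.61 against 5.47 to 6.99, and limma on 8 arrays did not pass it. The others called were Gata2, Klf4 and Fli1 (1.14) higher, and Runx1 (−2.19), Erg and Nfe2 (−1.07) lower. The myeloid factors Spi1 (PU.1), Cebpa and Irf8 were called neither way: Spi1 was at 11.38 against 11.49 to 11.72, Cebpa at 10.67 against 10.44 to 11.67 and Irf8 at 11.10 against 10.45 to 10.96. Another probe set of Irf8 was at 10.71 against 9.20 to 9.91, past the fold limit.

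**Figure D5:**
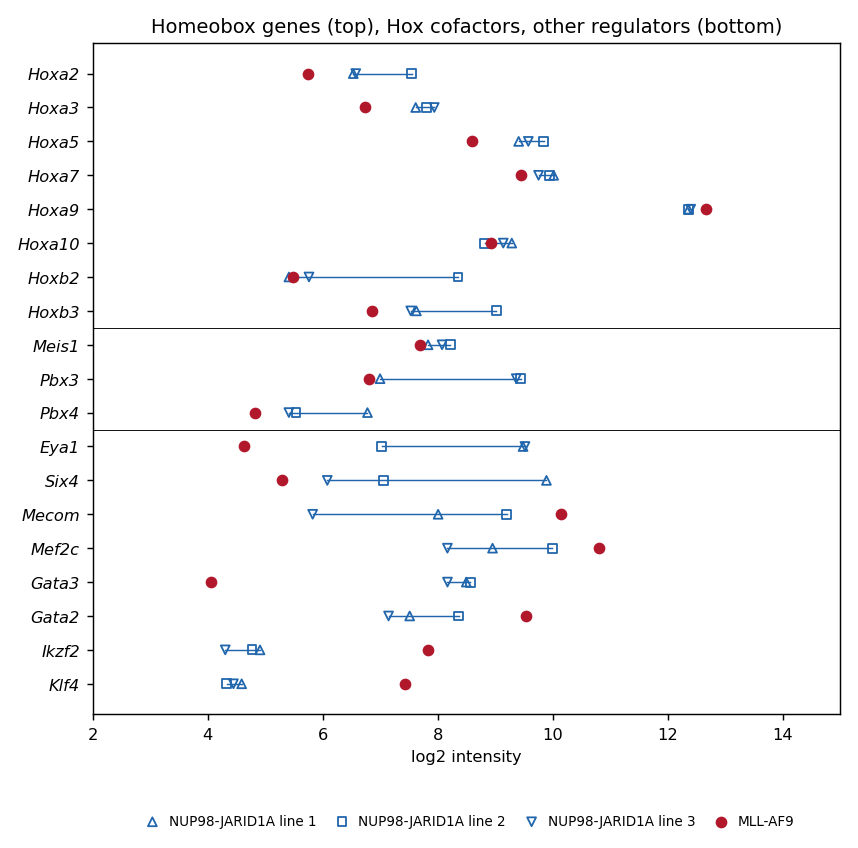
The x axis is log2 intensity and each row a gene, with the MLL-AF9 line as a filled circle and the 3 NUP98-JARID1A lines as open symbols joined over their range. Hoxa9 and Hoxa10 lie close together in all 4 lines, while MLL-AF9 is far below the lines for Gata3 (4.06 against 8.17 to 8.57) and far above them for Ikzf2 and Klf4.

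Stem and progenitor genes were called in both directions, 3 higher and 5 lower of 18 measured, beside 3.45% and 6.66% of all measured genes. Their median was −0.77, and −0.22 with no filter. Cd27, a co-stimulatory receptor, was at 9.23 in the MLL-AF9 line and at 6.67, 4.98 and 3.74 in NUP98-JARID1A lines 1, 2 and 3, and Prom1 (CD133) at 9.65 against 5.62 to 8.69. The progenitor marker Cd34 was at 11.20 in the MLL-AF9 line and at 12.50, 12.999 and 12.71 in NUP98-JARID1A lines 1, 2 and 3, 2.91-fold lower. Muc13, a membrane mucin, was at 7.18 against 9.10 to 9.90. Erg, an ETS factor of stem cells, was at 8.90 against 10.08 to 10.21. Among 18 integrins and adhesion genes, 6 were called lower and 3 higher, beside the same 6.66% and 3.45%. Their median was −0.51, and −0.06 with no filter. The integrin chains Itgam (CD11b), Itgb3 and Itgb7 were at 7.70 against 9.22 to 10.14, 6.39 against 8.21 to 9.47 and 9.65 against 11.50 to 11.89. E-cadherin, Cdh1, was higher at 6.40 against 3.52 to 3.79. Cdh1 and Cd27 passed the filter only through the MLL-AF9 level. Limma on 8 arrays passed neither Cdh1 nor Prom1. The desmosome protein Dsp, the third largest positive difference, was at 10.47 in the MLL-AF9 line and at 3.09, 4.94 and 4.43 in NUP98-JARID1A lines 1, 2 and 3, and at 9.42 to 10.14 in the untreated RH-RAS lines.

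Amino acid and stress genes leaned higher. Of 17 measured genes 5 were called higher, 1 lower and 11 neither, beside 3.45% of all genes called higher, with a median of 0.30. The number called higher was again 5 where every probe set had to pass and without each line in turn. Atf5, with 1 probe set, could not fail the former. Dropping 1 of 3 lines that lay close together could change little. Asparagine synthetase, Asns, was at 12.38 in the MLL-AF9 line and at 10.45, 10.05 and 9.96 in NUP98-JARID1A lines 1, 2 and 3, a 4.68-fold difference. The transcription factor Atf5 was at 10.44 against 7.67 to 8.07, the pseudokinase Trib3 at 8.49 against 6.38 to 6.83, the leucine transporter Slc7a5 at 11.81 against 10.29 to 10.80 and the glutathione-degrading Chac1 at 9.05 against 7.61 to 8.10. In each, the 3 NUP98-JARID1A lines lay close together and MLL-AF9 stood above them. Atf3 was called lower (6.17 against 6.73 to 8.08), and Ddit3 (CHOP) was at −0.82 and not called. The largest positive difference of all genes was that of Cth, which makes cysteine from cystathionine, at 11.75 in the MLL-AF9 line and at 3.25, 4.13 and 3.72 in NUP98-JARID1A lines 1, 2 and 3, a 265-fold difference. The untreated RH-RAS lines had Cth at 7.65 to 9.91.

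The composite element read by ATF4 and C/EBP factors, TGATGNAA, was in 6 of 16 promoters of the stress list (37.5%) and in 2.23% of the promoters of all measured genes, with 3.43% of those of higher and 3.24% of those of lower genes. Many genes of this list are known targets of ATF4. No 8 letters can match this motif and the C/EBP core at once, though matches may overlap at an offset. Of the 6 genes 3 were called higher (Asns, Chac1 and Trib3), 1 lower (Atf3), and 2 neither. The 250 bases upstream of 2 of them are shown with the match, or its reverse complement, in capitals, 23 bases before the start in Asns and 193 in Chac1:
Asns (chr6:7693210-7693459, minus strand): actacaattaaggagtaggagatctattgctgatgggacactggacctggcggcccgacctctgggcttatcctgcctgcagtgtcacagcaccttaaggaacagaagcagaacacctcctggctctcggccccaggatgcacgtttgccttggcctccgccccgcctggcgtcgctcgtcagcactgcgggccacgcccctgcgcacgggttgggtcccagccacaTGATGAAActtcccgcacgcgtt
Chac1 (chr2:119350992-119351241, plus strand): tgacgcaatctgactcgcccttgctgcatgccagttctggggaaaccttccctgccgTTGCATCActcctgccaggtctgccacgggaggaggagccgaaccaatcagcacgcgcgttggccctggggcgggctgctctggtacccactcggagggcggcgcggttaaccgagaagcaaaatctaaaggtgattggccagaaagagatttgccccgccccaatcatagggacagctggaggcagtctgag

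The counts for lists of growth and metabolism stand beside 10.1% of all measured genes called in either direction. None of 24 measured proliferation genes was called, and Rrm2 (12.80 against 11.56 to 12.22) and Bub1 (11.32 against 10.23 to 10.62) were the farthest. The 15 cholesterol synthesis genes and the 10 genes of the Bcl2 family had no call either. With so few genes, nothing is read from the smaller lists. Limma on 8 arrays nevertheless passed Rrm2, Bub1, Cyp51 and Insig1 (adjusted p = 0.0271, 0.0113, 0.0305 and 0.0301). Of 15 p53 targets and cell cycle inhibitors 4 were called lower and 1 higher. The inhibitor Cdkn2c (p18) was at 9.91 in the MLL-AF9 line and at 12.42, 11.98 and 12.36 in NUP98-JARID1A lines 1, 2 and 3, and Cdkn1b (p27) at 9.58 against 10.48 to 10.87, while the stress gene Gadd45a was higher at 9.76 against 7.78 to 8.53. Of 19 RAS-MAPK feedback genes 3 were called lower and 1 higher. The phosphatases Dusp4 and Dusp6 were at 6.2 against 8.08 to 10.93 and 10.07 against 11.02 to 11.35, and the ETS factor Etv5 at 7.20 against 9.15 to 9.66. Of 20 MYC and ribosome biogenesis genes 2 were called higher, Nop58 (12.63 against 11.04 to 11.61) and Mycl (6.82 against 5.63 to 5.75). The DNA methylation enzymes had 2 of 14 called higher, Tet1 (6.49 against 4.24 to 5.94) and Dnmt3b (10.47 against 8.57 to 10.32), where NUP98-JARID1A line 2 was near MLL-AF9. Mycl and Tet1 passed the filter only through the MLL-AF9 level. Of 20 glycolysis and hypoxia genes 2 were called higher, Ak4 and Vegfa, and 3 lower, Aldoc and Egln3 among them. Of 5 NADPH oxidase genes 1 was called, Cyba, at 12.30 against 13.44 to 13.65.

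Markers of other lineages were counted beside the same 10.1%. Among 8 measured B lymphoid genes 2 were called higher, Cd24a (12.06 against 7.13 to 9.92) and Cd79b (8.36 against 5.15 to 6.95), and 2 lower, Ighm and Vpreb1. Ighm was at 10.08 against 11.61 to 12.06 on its brightest probe set and at 9.16 against 10.44 to 10.96 on the next, in the same direction. Its difference was 0.08 by the median over 11 probe sets, most of them dim. Of 10 T and NK genes Gata3 and Klrd1 were called lower and Cd7 higher. Of 10 megakaryocyte genes 3 were called lower and 0 higher, with von Willebrand factor, Vwf, at 4.30 in the MLL-AF9 line and at 5.86, 7.93 and 8.31 in NUP98-JARID1A lines 1, 2 and 3. Of 6 erythroid genes 1 was called, carbonic anhydrase Car2, higher at 7.15 against 4.48 to 5.17. Car2 passed the filter only through the MLL-AF9 level, and Vpreb1, Gata3, Klrd1 and Vwf only through the NUP98-JARID1A mean. None of 5 fibroblast genes was called.

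The other genes at the ends of the ranking came from many functions. On the high side were the adhesion receptor Adgra3 (8.77 against 3.51 to 3.92), the claudin Cldn12 (9.24 against 4.64 to 4.70), the NKG2D ligand H60c, the phospholipid scramblase Plscr1, the nuclear factor Eid2, the adaptor Grb10 (8.80 against 4.51 to 4.78) and Zfp979 (7.31 against 2.99 to 3.32). Adgra3 and Eid2 were at 8.59 to 9.01 and 9.0 to 9.57 in the untreated RH-RAS lines, near the MLL-AF9 level, whereas Cldn12 (4.70 to 5.51) and Grb10 (4.50 to 4.65) were near the NUP98-JARID1A level. On the low side the calcium-binding S100a6 was at 6.07 in the MLL-AF9 line and at 11.03, 11.16 and 11.95 in NUP98-JARID1A lines 1, 2 and 3, and S100a4 at 8.65 against 12.43 to 13.09. The germline helicase Ddx4 was at 2.87 against 5.95 to 8.21, the myosin chaperone Unc45b at 3.56 against 5.94 to 8.44, and 4933430I17Rik at 3.23 against 5.85 to 8.24. The lectin-like receptor Klra17 was at 4.97 against 7.89 to 10.31. Smpdl3a, a phosphodiesterase, was at 4.35 in the MLL-AF9 line and at 4.84, 8.95 and 11.86 in NUP98-JARID1A lines 1, 2 and 3, so that its difference rested on lines 2 and 3. Limma on 8 arrays passed 11 of the 12 largest positive and 11 of the 12 largest negative differences. Plscr1 (adjusted p = 0.0613), which line 1 had at 7.87, and Smpdl3a (adjusted p = 0.198) were the exceptions.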

How the data were processed

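Total RNA of 10 mouse samples was measured on Affymetrix Mouse Genome 430 2.0 arrays, 1 array each, and 4 arrays were compared here. The deposited log2 intensities were made with RMA, per the submitters' processing notes, without a stated version. Sorted columns differed by at most 0.163, so the arrays share 1 distribution, and no further scaling was applied. RMA compresses low intensities, so folds that start or end near the bottom are understated.

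Of 45101 probe sets, 34958 had 1 gene symbol, 932 had several and were not used, and 99.4% of the former matched RefSeq (GRCm38.p6) by Entrez identifier. Where a gene (18194 in all) had several, the one brightest on average over 10 arrays was kept. Called genes, lists (37) and named genes followed the rules in the report. The text names the 12 largest differences each way, the 2 to 4 largest of each list, and fixed genes of the fusion, Hox and myeloid programs, and beyond these it names other members chosen after their values were seen. Cebpe was not analysed here. The lists, members and tests were chosen with earlier results of these data known. Limma 3.58.1 (R 4.3.3), with Benjamini-Hochberg adjustment, was run on simulated data that gave a gene the same spread on every array. That run checked the fold calls and the sizes of the differences, and it says nothing about limma's p-values. Limma treats lines as replicates, and nothing says that they came from separate animals. Its p-values therefore cover only the spread among these arrays, which may be technical. Limma results are given in the text for some genes only, and a gene without one should not be read as passed. Other steps used Python 3.11.15. The number of arrays limits the precision.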

Additional observations from a re-analysis of the deposited data

How the results depend on the processing

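The counts of genes called higher and lower, 406 and 784, moved by over 1.5 times under 4 settings. They were 107 and 153 at a difference of at least 2, 233 and 420 where the MLL-AF9 line had to be at least 1 from every line, 857 and 1485 by limma on 8 arrays (1783 and 2474 at an unadjusted p under 0.05) and 17 and 4 by limma on the 4 arrays (1050 and 1715 unadjusted). Leaving out each NUP98-JARID1A line in turn gave 408 to 485 higher and 769 to 872 lower genes. The filters, the choice of probe set, median subtraction and dropping the condition on the range kept both counts within 1.5 times, as did the rule that every probe set must pass, which was added after seeing the data. No paired analysis was possible because the MLL-AF9 line is 1 array and carries no line number.

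Among named genes the difference of Malat1 turned to −1.03 with the probe set of highest mean over the 4 arrays, and that of Ighm to 0.0812 with the median over all probe sets. Of the other values of named genes 40 moved by more than the SD of the lines and 1200 did not. Most of the 1200 could not move. The filters leave a gene's difference unchanged, and leaving out 1 of 3 lines cannot shift their mean by more than the SD. The moves were 33 with the median over all probe sets, 4 with median subtraction and 3 with the probe set of highest mean over the 4 arrays. Of the list counts 64 moved by over 1.5 times and 676 did not. With a filter of at least 2 of 10 arrays above the median, 0 eosinophil genes were called, since that filter drops genes high on 1 array. The causes of the other moves were not tested. Levels near the array median limit the folds: all 3 lines were below it for 71 of the higher genes, and the MLL-AF9 line for 156 of the lower genes.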
